A study of Mus musculus with 2 samples.

Results

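The 9 retinoid genes described here encode the carrier of retinol in blood, *Rbp4*, its membrane receptor, *Stra6*, the synthesis enzymes of retinoic acid, *Rdh10*, *Aldh1a1*, *Aldh1a2* and *Aldh1a3*, the cytosolic retinoic acid binding proteins, *Crabp1* and *Crabp2*, and a breakdown enzyme, *Cyp26b1*. They were chosen by name, and each was measured by 1 probe set that carries its symbol alone, so 9 of the 19938 genes with a value are covered. Whole pancreata of embryos at E15.5 had been compared between wild type (WT) and *Mafk*-Tg, both kept on an ICR background, by Affymetrix mouse gene arrays. The transgene places a FLAG-tagged murine MafK cDNA under the rat insulin I promoter, which is active in β-cells, a small share of this tissue, and the construct had been injected into BDF1 eggs. The labels give 3 pancreata per genotype, with 1 array for each genotype. The paper speaks of 3 pairs of pancreata and calls the array samples technical replicates. Whether an array holds a pool of the 3 is not stated in the sources used here.

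Vitamin A reaches tissues as retinol bound to RBP4, and STRA6 lets it enter cells. RDH10 oxidises retinol to retinal, and the ALDH1A enzymes convert retinal to retinoic acid, which switches on genes through the retinoic acid receptors (RAR) and their partners, the retinoid X receptors (RXR). CRABP proteins carry retinoic acid inside the cell and CYP26 enzymes destroy it. In the mouse embryo, retinoic acid made by *Aldh1a2* in the mesoderm is required to specify the dorsal pancreas.

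The starts of transcription of *Rbp4* are shown here because *Rbp4* had the largest difference of the 9 genes and because MAFK binds the Maf recognition element (MARE), a palindrome that can be written as TGCTGA and TCAGCA with C or CG between them. RefSeq windows of 250 bases before to 50 bases after a start were found for 6 of the 9 genes, 11 windows in all, and not for *Rdh10*, *Aldh1a3* and *Crabp2*. The windows of *Aldh1a2* and *Cyp26b1* stand beside those of *Rbp4* as examples of synthesis and breakdown. All are from GRCm38.p6 and read 5′ to 3′ along the gene, and capitals mark every match to a motif named in the next paragraph.
*Rbp4*, upstream start, chr19:38125272-38125571, minus strand: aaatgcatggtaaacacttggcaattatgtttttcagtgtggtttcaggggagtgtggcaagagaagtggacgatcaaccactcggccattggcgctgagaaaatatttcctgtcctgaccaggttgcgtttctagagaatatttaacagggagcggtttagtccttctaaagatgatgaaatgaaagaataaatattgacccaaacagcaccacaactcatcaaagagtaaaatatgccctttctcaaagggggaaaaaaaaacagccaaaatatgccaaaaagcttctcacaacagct
*Rbp4*, downstream start, chr19:38124762-38125061, minus strand: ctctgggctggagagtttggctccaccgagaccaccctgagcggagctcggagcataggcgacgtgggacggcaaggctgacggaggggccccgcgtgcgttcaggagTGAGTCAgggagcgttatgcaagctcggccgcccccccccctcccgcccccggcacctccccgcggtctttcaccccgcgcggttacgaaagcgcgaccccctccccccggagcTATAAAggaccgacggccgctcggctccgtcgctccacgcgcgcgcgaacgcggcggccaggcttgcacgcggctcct
*Aldh1a2*, chr9:71215539-71215838, plus strand: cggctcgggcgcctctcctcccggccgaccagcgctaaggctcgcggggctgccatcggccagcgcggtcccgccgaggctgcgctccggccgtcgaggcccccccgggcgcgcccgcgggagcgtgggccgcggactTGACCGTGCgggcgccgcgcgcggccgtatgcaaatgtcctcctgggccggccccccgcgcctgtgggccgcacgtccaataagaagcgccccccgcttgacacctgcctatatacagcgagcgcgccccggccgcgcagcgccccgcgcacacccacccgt
*Cyp26b1*, chr6:84593761-84594060, minus strand: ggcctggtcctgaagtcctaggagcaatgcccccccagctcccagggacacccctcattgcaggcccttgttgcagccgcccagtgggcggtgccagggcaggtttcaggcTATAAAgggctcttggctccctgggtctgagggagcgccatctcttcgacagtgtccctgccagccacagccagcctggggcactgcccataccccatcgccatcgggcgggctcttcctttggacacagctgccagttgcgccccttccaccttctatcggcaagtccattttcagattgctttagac

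The 2 windows of *Rbp4* differed in base composition. The downstream window was 72.0% G or C with 40 CpG pairs, and the upstream window was 40.7% G or C with 5. *Aldh1a2* had 78.0% and 50 CpG pairs, and *Cyp26b1* 62.3% and 9. Both strands were searched. The full MARE was in 0 of the 11 windows and in 0.00304% of all 32851 windows, and an arm of it extended by a base, TGCTGAC, was in 0 of the 11 and in 4.67% of all. The element of small MAF proteins with their CNC partners, TGACNNNGC, was in the window of *Aldh1a2* alone among the 11, starting 112 bases before the start, and in 12.4% of all windows. Direct repeats of AGTTCA or its variants AGGTCA and GGTTCA as well as GGGTCA, to which retinoic acid receptors bind, were in 0 of the 11 with a spacer of 5 bases and in 0 with a spacer of 2, against 0.0974% and 0.268% of all windows. After the windows had been read, the AP-1 core of the MARE, TGACTCA or TGAGTCA, and the TATA box, TATAAA, were added to the search. The AP-1 core lies inside the full MARE with a single C, and 5.20% of all windows hold it. It was 142 bases before the downstream start of *Rbp4* and 57 bases before the upstream start of *Aldh1a1*. At neither place did the letters TGC stand before it or GCA after it, as they do in the full MARE. TATAAA was 28 bases before the downstream start of *Rbp4* and 139 bases before that of *Cyp26b1*, and 13.6% of all windows hold it. The array does not separate RNA from the *Rbp4* starts, and a match is a description of letters only.

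Array values are on the log2 scale as deposited, with a median of 6.01 on each array, and a difference is the *Mafk*-Tg value minus the WT value of the same probe set. With 1 array per genotype no spread between replicates exists, so differences were not tested, and the precision of each value is limited by the number of arrays. A gene was counted as higher or lower when it differed by at least 1.2-fold, or 0.26 on the log2 scale, which is the cutoff the study used. Genes whose mean level reached the median over all probe sets are called bright, and the rest dim. *Mafk* itself read 6.75 on the WT array and 7.00 on the *Mafk*-Tg array, and this difference of 0.25 is under 1.2-fold. *Xist* read 4.40 in WT and 11.30 in *Mafk*-Tg, higher by 6.90. The 3 Y-linked genes had means of 7.83 in WT and 3.07 in *Mafk*-Tg, with differences of -5.68 to -3.93. Embryo sex may thus run with genotype, and for every gene the 2 cannot be told apart here. Of the 9 retinoid genes 0 lie on the X or Y chromosome, which does not remove this limit. The acinar genes *Cpa1*, *Ctrb1* and *Pnliprp1*, of the labelled tissue, had log2 values of 13.08 to 13.51.

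Of the 9 genes, *Rbp4* and *Crabp2* were at least 1.2-fold higher in the *Mafk*-Tg array, 0 were at least 1.2-fold lower and 7 lay within the cutoff. Of all 19938 genes, 7.96% were higher and 10.5% lower by this cutoff. *Rbp4* was among the 7 bright retinoid genes, and of all bright genes 5.58% were higher and 5.87% lower. *Crabp2* and *Aldh1a3* were dim, and of all dim genes 11.1% were higher and 16.6% lower. The median difference of the 9 genes was -0.06, beside -0.01 over all genes, with 4 differences above 0 and 5 below.

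*Rbp4*, which encodes the plasma carrier that liver cells load with retinol, read 8.70 on the WT array and 9.25 on the *Mafk*-Tg array. The *Mafk*-Tg array was the higher by 0.55 on the log2 scale, or 1.46-fold. Among the 11412 bright genes, 37 had a larger increase. The robust SD of the difference over the 1000 genes nearest to *Rbp4* in level was 0.13, which describes genes of these arrays and not replicates. The study had picked *Rbp4* from these arrays for a follow-up, so its difference here is not independent evidence of a direction. In that follow-up, by qRT-PCR of individual samples, the paper also reports *Rbp4* as higher in *Mafk*-Tg. In RNA of a whole organ, more cells that express a gene and more of its RNA per cell cannot be told apart.

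*Stra6*, which encodes the receptor that takes up retinol from RBP4, had 6.90 in WT and 7.06 in *Mafk*-Tg. The difference had the sign of that of *Rbp4* at a smaller size, 0.17 or 1.12-fold, and lay within the cutoff. Among bright genes 1642 had a larger increase.

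**Figure D1:**
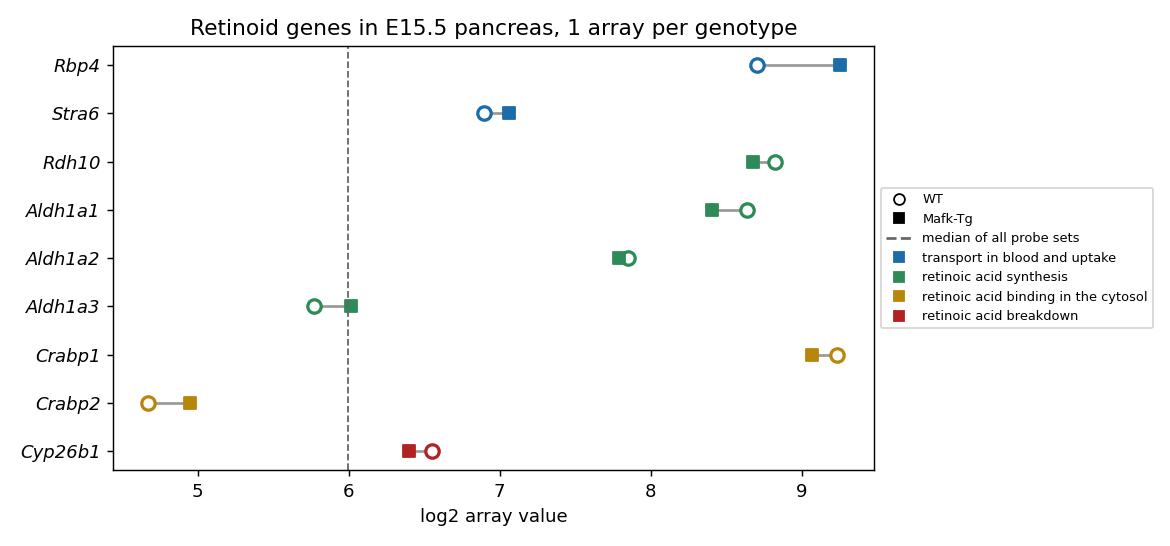
Log2 array values of the 9 retinoid genes in WT (open circles) and *Mafk*-Tg (squares) on 1 array each, coloured by role, with the median of all probe sets as a dashed line. *Rbp4* has the widest gap, from 8.70 to 9.25, and the points of *Rdh10*, *Aldh1a1*, *Aldh1a2*, *Crabp1* and *Cyp26b1* lie lower in *Mafk*-Tg. Levels of different genes come from different probes and are not compared.

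The genes of synthesis did not share the difference of *Rbp4*. *Rdh10*, whose product makes the retinal that embryos use for retinoic acid, read 8.82 in WT against 8.68 in *Mafk*-Tg, differing by -0.15. *Aldh1a1*, a retinaldehyde dehydrogenase gene, had 8.64 and 8.41, a difference of -0.23 or 1.17-fold lower, just within the cutoff. It was the lowest difference of the 9 genes, and 908 bright genes had a lower one. *Aldh1a7*, a near copy of *Aldh1a1* whose RNA may bind some of the same probes, had 5.99 in WT and 6.08 in *Mafk*-Tg. *Aldh1a2*, the mesodermal synthesis gene, had 7.85 and 7.79, and its difference of -0.06 was the smallest in size of the 9 genes.

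*Aldh1a3* stood apart from the other 3 synthesis genes in sign. It read 5.77 in WT against 6.01 in *Mafk*-Tg, differing by 0.24 or 1.18-fold, within the cutoff. Its mean level lay just under the median, and dim genes spread more. The robust SD of the difference was 0.24 over all dim genes and 0.15 over all bright ones. Over the 1000 genes nearest to *Aldh1a3* in level it was 0.19. The 4 synthesis genes had a mean difference of -0.05, and *Rbp4* exceeded this mean by 0.60. Without *Aldh1a3* the mean of the other 3 was -0.15.

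*Cyp26b1*, which encodes a cytochrome P450 that clears retinoic acid, had 6.55 in WT and 6.40 in *Mafk*-Tg. Its difference of -0.15 was close to that of *Rdh10* and lay within the cutoff. The difference of *Rbp4* exceeded it by 0.70. Both the brighter synthesis genes and the breakdown gene were slightly lower in *Mafk*-Tg, while the carrier of retinol was higher. The robust SD over the 1000 genes nearest in level was 0.19 for *Cyp26b1* and 0.15 for *Aldh1a2*, larger than the size of their differences. For *Rdh10* and *Aldh1a1* it was 0.13.

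The binding proteins of the cytosol differed in sign. *Crabp1*, known for its expression in mesenchyme and neural crest, read 9.24 in WT against 9.07 in *Mafk*-Tg, differing by -0.17. *Crabp2*, whose product hands retinoic acid to its receptors, had 4.67 and 4.95, a difference of 0.28 or 1.21-fold. *Crabp2* passed the cutoff at a level below that of 77.8% of genes, and 11.1% of genes in this dim part of the arrays were also at least 1.2-fold higher.

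**Figure D2:**
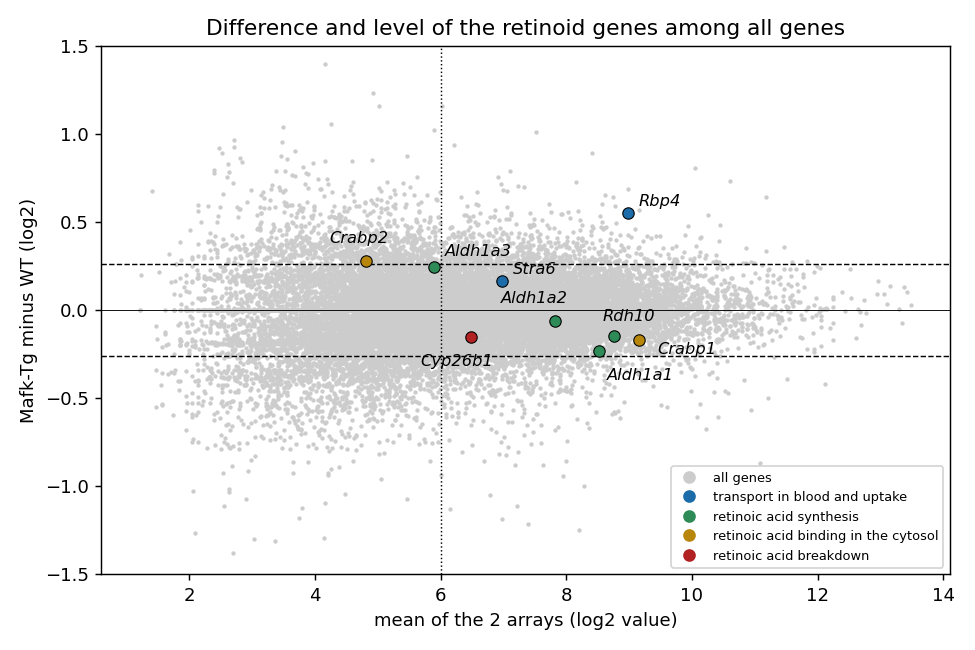
Difference of each gene, *Mafk*-Tg minus WT on the log2 scale, against the mean of its 2 log2 values, with the 9 retinoid genes coloured by role, all other genes in grey, dashed lines at 1.2-fold and a dotted line at the median level. *Rbp4* lies at 0.55 above the bulk of genes of its level and the other 8 lie inside or close to it, and 9 genes with a difference of 1.5 or more in size are outside the axis.

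The rest of the pathway was described with 4 lists that hold 55 genes, of which 53 were measured. Of these, 9 were higher in *Mafk*-Tg by 1.2-fold or more and 4 lower, with a median difference of 0.01 beside -0.01 over all genes. The 29 bright ones held 5 that were higher and 0 that were lower, where the shares of all bright genes were 5.58% and 5.87%. The 24 dim ones held 4 of each, where the shares of all dim genes were 11.1% and 16.6%. The lists were not tested.

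Among 9 measured genes of retinoid transport, storage and binding, 4 were higher and 0 lower, with a median of 0.04. *Rbp2*, which encodes the retinol binding protein of enterocytes, had 6.61 in WT and 7.32 in *Mafk*-Tg. The difference of 0.71, or 1.64-fold, was larger than that of *Rbp4*, and 11 bright genes had a larger one. *Ttr*, the gene of transthyretin, the plasma protein to which RBP4 is bound and also a product of α-cells, had 10.29 and 10.56, a difference of 0.27 or 1.21-fold. *Fabp5*, the gene of a fatty acid binding protein that can also carry retinoic acid, had 9.56 and 9.84, a difference of 0.27. The dim *Rbp3* had 0.39, and *Lrp2*, the gene of the endocytic receptor megalin, had -0.01.

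*Rbp2* is an intestinal gene, and *Cdx1*, described with the target genes, is another. A list of 23 genes of stomach and gut epithelium was therefore added after these values had been seen. Of its 22 measured genes 2 were higher, 2 were lower and the median difference was 0.05, with 13 above 0 and 7 below, and the mean log2 level was 5.01 on the WT array and 5.18 on the *Mafk*-Tg array. The intestinal genes of the list had differences of both signs. The dim *Krt20*, a keratin gene, had 4.18 and 4.62, a difference of 0.43 and the only one of them past the cutoff, and the bright *Vil1*, the villin gene, had 6.98 and 7.24, a difference of 0.26 just within it. *Lgals4* had 0.20, *Sis* 0.17 and *Cdh17* 0.14, while *Cdx2* had 5.01 on both arrays, *Fabp2* had 3.44 and 3.25, and *Fabp1* had 3.64 and 3.48. Apart from *Vil1* all of these were dim. The gastric genes also had differences of both signs. *Cym*, the gastric chymosin gene, had 7.17 and 10.51, a difference of 3.34, and *Tff2* had 0.03. The dim *Gkn1* and *Gkn3*, which were the lower genes of the list, had -0.40 and -0.26, and the dim *Tff1* had -0.17. The dim *Sox2*, *Muc6* and *Gkn2* had 0.24, 0.11 and 0.06. The part of such cells in the value of *Rbp2* was not tested.

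Of the 25 other enzyme genes 3 were higher and 3 lower by the cutoff. Their median was 0.07, with 15 differences above 0 and 8 below. All 6 past the cutoff were dim, among them *Aldh8a1* at 0.71 and *Sdr16c5* at -0.55, while 0 of the 8 bright ones passed it. *Dhrs3*, whose product turns retinal back into retinol, read 7.86 in WT against 8.00 in *Mafk*-Tg, differing by 0.14. *Cyp26a1*, another breakdown gene that retinoic acid itself induces, had 4.60 and 4.36, a difference of -0.25 at a dim level. *Adh1*, which encodes an alcohol dehydrogenase that acts on retinol, had 0.10.

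The receptors and targets of retinoic acid mostly lay within the cutoff. Of the 6 receptor genes, 5 had a difference below 0, and the dim *Rxrg* at -0.34 alone passed 1.2-fold. *Rara* had -0.09, *Rarg* 0.05 and *Rxra* -0.19. *Rarb*, a receptor gene that retinoic acid induces, read 7.13 in WT against 6.88 in *Mafk*-Tg, differing by -0.25, just within the cutoff. Of 16 measured target genes 2 were higher and 0 lower, with a median of 0.02. These were the homeobox genes *Cdx1*, with 6.17 in WT and 6.68 in *Mafk*-Tg or 0.51, and *Hoxb1*, with 6.19 and 6.52 or 0.32. *Hoxa4*, *Hoxa5*, *Hoxb4* and *Hoxb5* had 0.06, 0.01, -0.17 and -0.02. *Tgm2*, the transglutaminase gene, had 0.05 and *Rarres2* had -0.19. Of the 16 target genes 9 had a difference above 0 and 7 below.

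**Figure D3:**
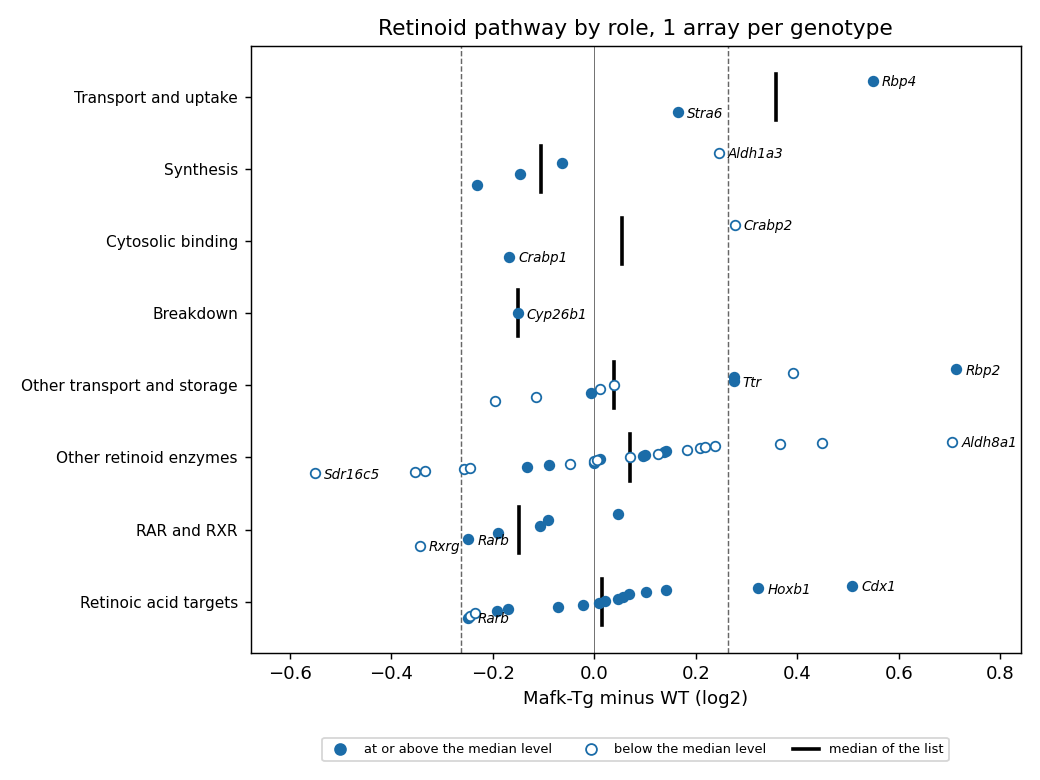
Differences between the arrays on the log2 scale, as *Mafk*-Tg minus WT, for each measured gene (filled points are bright genes and open points dim ones) by role in the retinoid pathway, with the median of each list as a bar and dashed lines at 1.2-fold, 1 array per genotype. *Rbp2* at 0.71 and *Rbp4* at 0.55 are the highest filled points, and the synthesis, breakdown and receptor rows have medians of -0.10, -0.15 and -0.15.

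*Rbp4* and *Ttr* are also hepatocyte genes, so markers of liver cells were set beside them. Of 14 hepatocyte markers, which include neither gene, 8 were lower in *Mafk*-Tg and 0 higher. Their mean log2 level was 7.12 on the WT array and 6.80 on the *Mafk*-Tg array, and the median difference was -0.32. *Alb*, the albumin gene, had 11.23 and 10.66, and *Trf*, the transferrin gene, had 9.03 and 8.43. The remaining 6 lay within the cutoff, and 3 of these were above 0, the sign of *Rbp4* and *Ttr*: the bright *Vtn*, the vitronectin gene, at 0.13, and the dim *Fga* and *Fetub* at 0.13 and 0.08. The difference of *Rbp4* exceeded that of *Alb* by 1.12. The part of liver cells in the value of *Rbp4* was not tested.

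Markers of pancreatic epithelium and islets had differences of both signs. Of 6 measured α-cell markers 3 were higher and 0 lower, with a mean of 7.83 in WT and 8.11 in *Mafk*-Tg and a median difference of 0.21. *Gcg*, the glucagon gene, had 11.68 and 11.96. Of 12 acinar markers 3 were higher and 0 lower, with means of 10.77 and 10.99 and a median of 0.22. Of 9 duct and trunk markers 1 was higher and 1 lower, with means of 8.48 and 8.54 and a median of 0.13. Of 8 β-cell markers 0 were higher and 5 lower, with means of 7.21 and 6.86 and a median of -0.43. *Rbp4* is also expressed in δ-cells, and 3 δ-cell genes were added after its value had been seen. *Sst*, the somatostatin gene, read 8.39 in WT against 8.87 in *Mafk*-Tg, differing by 0.47. *Hhex*, a transcription factor gene of δ-cells, had 0.24, and the dim *Ghsr* had -0.12. The part of epithelial or endocrine cells in the value of *Rbp4* was not tested.

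*Aldh1a2* is expressed in mesothelium and mesenchyme, and *Crabp1* in mesenchyme and neural crest. Of 9 mesothelium markers 0 passed the cutoff, with means of 7.53 in WT and 7.47 in *Mafk*-Tg and a median difference of -0.08. *Upk3b* and *Wt1*, genes of mesothelial cells, had -0.09 and -0.13. Of 15 mesenchyme markers 2 were lower and 0 higher, with means of 9.18 and 9.07 and a median of -0.10. Of 7 measured markers of neural crest and glia 1 was higher and 1 lower, with means of 6.32 and 6.37 and a median of 0.07. Endothelial markers had a median of -0.15 with 1 of 8 lower, leukocyte markers -0.58 with 10 of 11 lower and erythroid markers -0.53 with 5 of 6 lower. The part of stromal or blood cells in the values of the retinoid genes was not tested.

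**Figure D4:**
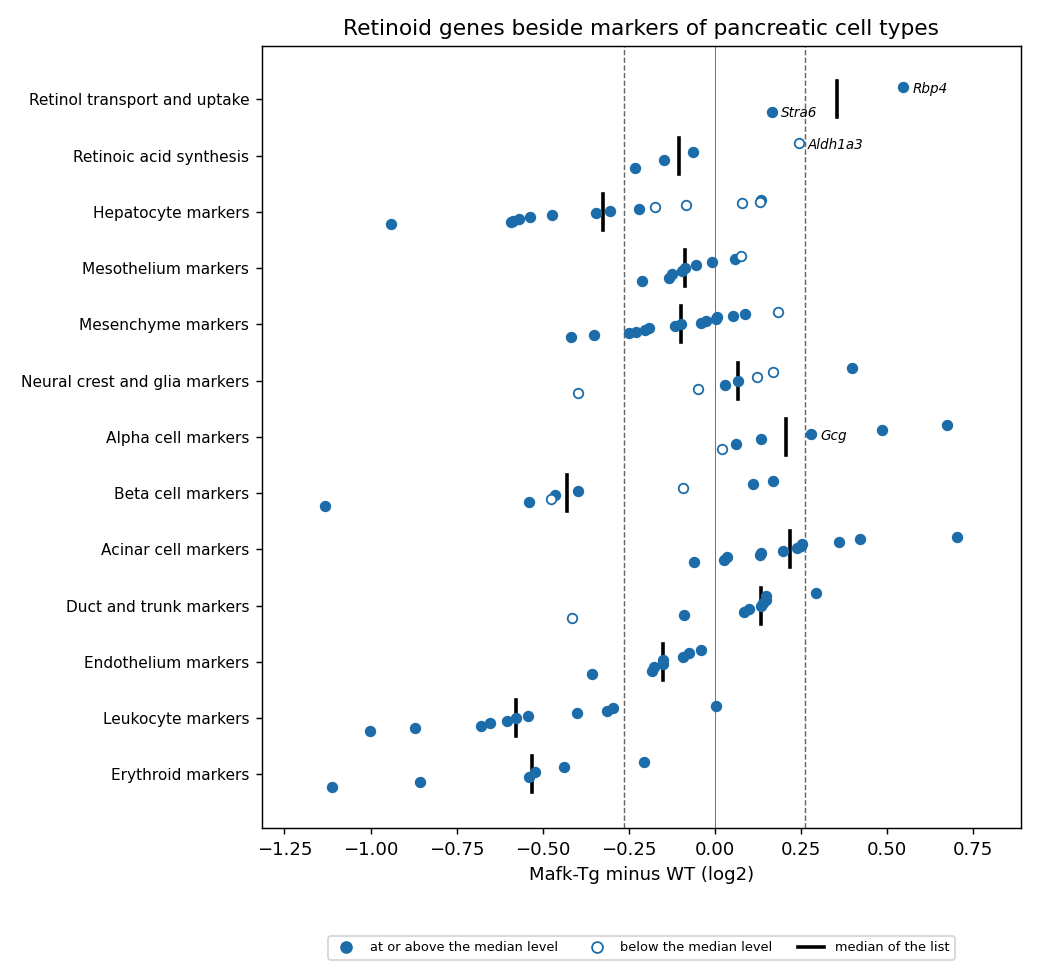
Differences between the arrays on the log2 scale, as *Mafk*-Tg minus WT, for each measured marker gene (filled points are bright genes and open points dim ones) for 11 cell types beside the retinol transport and retinoic acid synthesis genes, with list medians as bars and dashed lines at 1.2-fold, 1 array per genotype. Hepatocyte markers have a median of -0.32 while *Rbp4* lies at 0.55. The synthesis genes have a median of -0.10 and range from -0.23 to 0.24.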

How the data were processed

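Total RNA of whole E15.5 pancreata had been hybridised to GeneChip MoGene arrays. Normalization and probe set summarization had been done by the authors in Affymetrix Expression Console. No version or algorithm is given in the sources used here. Deposited values are on the log2 scale. Background and compression at both ends of the scale shrink differences. Of 35556 probe sets, 21789 had 1 symbol in the platform table, 1621 had several and 12146 were unnamed. Those with 1 symbol were averaged for each gene, and the WT value was subtracted from the *Mafk*-Tg value. Fixed alternatives were equal medians, quantile normalization, a loess with a span of 0.3, the brightest probe set, probe sets with several symbols, no dim probe sets, and cutoffs of 1.1-fold and 1.5-fold. The 9 genes and all lists were chosen with earlier results of these data known. Named genes are the 9, pathway genes that are bright and past 1.2-fold, 7 pathway genes fixed by name, and up to 3 bright markers per list; others were singled out after their values were seen. Some of these pathway genes are not reported here. The steps were tested on simulated data. Software was matplotlib 3.10.9, statsmodels 0.14.6, pandas 2.3.3, numpy 2.4.6 and Python 3.11.15. Promoter windows are from RefSeq, GRCm38.p6.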

Additional observations from a re-analysis of the deposited data

How the results depend on the processing

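No paired analysis was possible because each genotype has 1 array. All 9 differences kept their sign under equal medians, quantile normalization and loess, and the largest move was 0.023. The deposited values had already been normalized and the arrays have nearly equal medians, so these rescalings could move the differences only a little. The difference of *Rbp4* was 0.54 to 0.55, and *Crabp2*, at 0.27 to 0.30, stayed above the cutoff. The brightest probe set and probe sets with several symbols could not alter them, since each gene has 1 probe set and 0 with several symbols. Without dim probe sets, *Crabp2* and *Aldh1a3* were not measured and 1 gene, *Rbp4*, was at least 1.2-fold higher. At a cutoff of 1.5-fold 0 of the 9 genes were higher, and at 1.1-fold 4 were higher and 4 lower. The shares of all genes at these cutoffs were not counted, so these counts show only how the cutoff acts and not a trait of the 9 genes. The excess of *Rbp4* over the synthesis genes kept its sign, and without the dim *Aldh1a3* their mean was -0.15. Signal over background limits *Crabp2* and *Aldh1a3*, and the error of every value stays unknown with 1 array per genotype.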

Other observations

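The protein-coding genes next to *Rbp4* on chromosome 19, in the order of the RefSeq table of GRCm38.p6, were read after the value of *Rbp4* had been seen. On the side of the lower coordinates, *Ffar4*, the gene of a fatty acid receptor, had a log2 difference of 0.06, *Cep55*, which encodes a protein of the final step of cell division, had 0.29 and *Myof*, the gene of myoferlin, had 0.23. On the other side the dim *Pde6c*, a gene of cone photoreceptors, had 0.31, *Fra10ac1* had 0.03 and *Lgi1* had 0.00. None of the 6 had a difference as large as the 0.55 of *Rbp4*, which only 37 of all 11412 bright genes exceeded. *Cep55* and *Pde6c* passed 1.2-fold, where 5.58% of all bright genes and 11.1% of all dim genes were higher by this cutoff. The neighbours were not tested.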
